A study of Bos taurus with 12 samples.

Results

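The miRNA bta-miR-208b was followed in longissimus muscle biopsies of steers across time-on-concentrates (TOC). It is 1 of 2712 features in the deposited small RNA table and 1 of the 640 features with a miRBase identifier. Its row was found through the identifier that the study pairs with bta-miR-208b, MI0009774, which stands for the precursor. The libraries came from 4 angus-cross yearling steers by 1 sire, each biopsied at d 0, d 92 and d 124 of a high concentrate diet, which gave 12 libraries, 4 per time. The d 0 biopsies were taken at the start of feeding, and the steers reached the final ration through step-up rations. The 4 steers had been chosen from the steers on trial because their intramuscular fat content was near the mean at d 92 and d 124, and they are numbered 1 to 4 here, as are their replicates at each time. The biopsy was taken on the left side at d 0, on the right side of the same rib at d 92 and at the next rib on the left at d 124. Site, age and TOC therefore cannot be told apart. There were no steers kept off concentrates.

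The gene of miR-208b lies inside MYH7, the gene of the slow (beta) myosin heavy chain, by the RefSeq gene table of ARS-UCD2.0, which is not the build of the alignment. Its neighbour MYH6, which encodes the alpha myosin heavy chain of the heart, holds the gene of miR-208a there. Intronic miRNAs of this kind are made from the transcript of their host, so miR-208b is known to accompany slow myosin in slow-twitch, oxidative fibres and in the heart. With miR-499, hosted by MYH7B, it is known in mice to repress repressors of the slow fibre programme. Longissimus of cattle is a mixed muscle in which fast fibres prevail. The mRNA of MYH7 was not measured by these libraries, and in a biopsy fewer slow fibres and less miR-208b per fibre cannot be told apart.

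Values are normalized levels on a log2 scale. The authors used a quantile normalization, and each deposited row has a median of 0. The features it ran over are not stated. The median was recovered here from levels that features share between libraries. It was 9.85 for miR-208b, and at that value the level in each of 12 libraries coincided with a level held by another feature in another library. On the linear scale all 12 levels were whole multiples of 1/12 (tolerance 0.005), as a mean over 12 libraries of whole reads would be. A level may thus stand for the mean number of reads, over the libraries, at the rank that miR-208b held in its own library, but the study also speaks of TPM, and the scale is not settled by the sources used here. The study gives the total of raw reads and the lowest number in any sample, but not the depth of each library.

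At d 0 the level of miR-208b was 10.40, 9.59, 10.26 and 11.06 in steers 1, 2, 3 and 4. At d 92 it was 10.32, 10.12, 8.68 and 10.48 in the same order. At d 124 it was 9.28, 9.11, 9.56 and 9.47. Steer 4 was the highest at d 0 and at d 92, steer 3 was far below the others at d 92, and at d 124 all 4 steers lay close together. The means were 10.33 ± 0.60 (SD, n = 4) at d 0, 9.90 ± 0.83 at d 92 and 9.36 ± 0.20 at d 124. In linear units the geometric means were 1286, 956 and 655, so miR-208b was a feature of moderate abundance at each time. It was above the floor, a normalized value of 1, in 12 of 12 libraries.

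**Figure D1:**
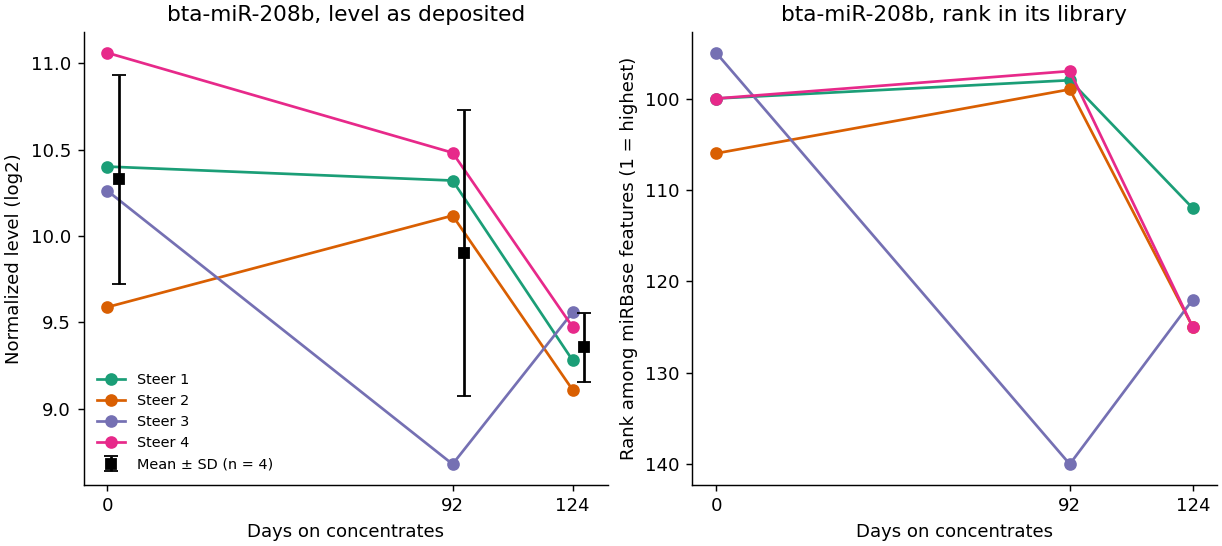
Level of bta-miR-208b (log2, left) and its rank among the miRBase features of its library (right, 1 = highest, axis reversed) against days on concentrates. Coloured lines join the libraries of 1 steer and black squares are the mean ± SD of 4 libraries. The level at d 124 was below every d 0 library in all 4 steers, and steer 3 alone had its lowest point at d 92.

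The order of miR-208b within each library needs no scaling. It was further down at d 124 than at d 0 in 4 of 4 steers, and further down at d 92 in 1, steer 3. Among 631 miRBase features with a recovered level, miR-208b ranked between 95 and 106 at d 0, and between 97 and 99 at d 92 in steers 1, 2 and 4. In steer 3 at d 92 it ranked 140. At d 124 it ranked 112, 125, 122 and 125 in steers 1 to 4, below the rank of every d 0 library. The mean rank moved from 100.25 at d 0 to 121 at d 124 (exact permutation test, two-sided, 70 regroupings, p = 0.0286, the lowest value possible with 4 against 4 libraries). From d 0 to d 92 the mean rank moved to 108.5 (exact p = 0.8). The share of features that moved down in rank in these ways at d 124 was not computed. By level, 2.72% of 368 features had every d 124 library below every d 0 library, and 10.3% were lower in 4 of 4 steers. The study had listed miR-208b as lower at d 124 on these same libraries, so the ranks are not independent evidence.

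The question of the study was which miRNAs change as intramuscular fat is deposited. At d 124 against d 0 the log2 fold change of miR-208b was -0.97, or 0.509-fold, with a standard error of 0.38 and a 95% interval of -1.80 to -0.15 (limma, adjusted p = 0.496). It had an unadjusted p of 0.0243 in limma and was 1 of 28 of 368 miRBase features (7.61%, and 8.97% in either direction) that were lower by the 1.3-fold the study asked for at an unadjusted p under 0.05. At an adjusted p under 0.05, limma called 0 of 368 (0%), with 33 at an unadjusted p under 0.05. The highest level at d 124, 9.56 in steer 3, was below the lowest at d 0, 9.59 in steer 2 (two-sided exact permutation test, p = 0.0286, or 0.0857 adjusted over 3 comparisons). The groups were separate in this direction for 10 of the 368 features (2.72%). The study had listed miR-208b as lower at d 124 on these same libraries, with a larger change and a smaller p than here. The comparison is therefore not independent evidence of its direction.

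Paired by steer, the change of miR-208b from d 0 to d 124 was -1.12 in steer 1, -0.48 in steer 2, -0.70 in steer 3 and -1.59 in steer 4. It was lower in 4 of 4 steers, as were 38 of the 368 features (10.3%). The paired changes had a mean of -0.97 ± 0.49 (SD, n = 4 steers; two-sided exact sign-flip permutation test, p = 0.125, the smallest that 4 pairs allow). The unadjusted p in limma rose above 0.05 without d 0 replicate 4, without d 124 replicate 1 and without d 124 replicate 2, at 0.0868, 0.0518 and 0.0655. The log2 fold change was then -0.73, -0.95 and -0.89.

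**Figure D2:**
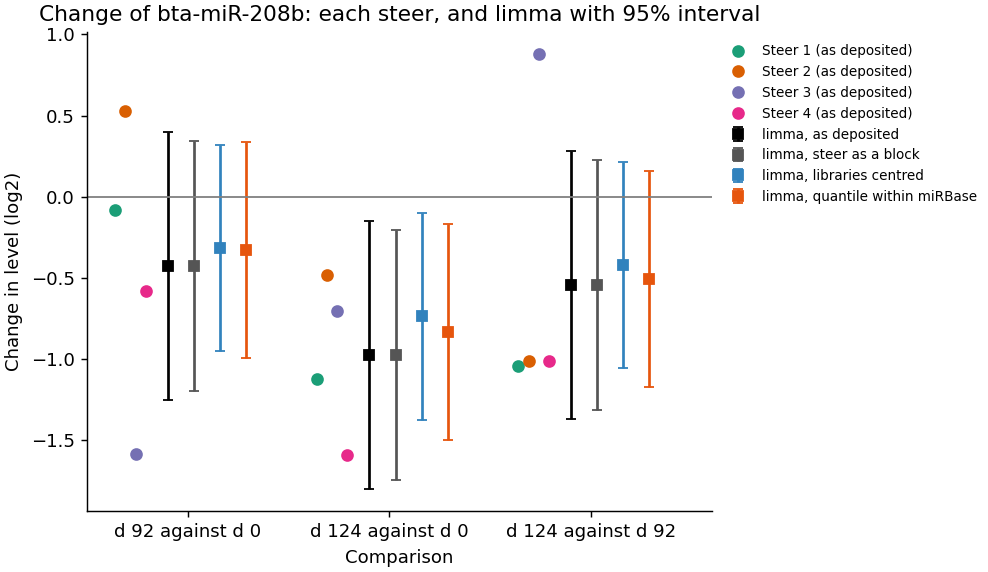
Change of bta-miR-208b in level (log2) in the 3 comparisons. Circles are the steers, and squares with bars are the limma estimates with 95% intervals, as deposited, with the steer as a block, with libraries centred and with quantile normalization within miRBase features. At d 124 against d 0 all 4 circles lie below 0, while steer 3 stands apart from the others in both comparisons with d 92.

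Of 107 other miRBase features tested whose median level was that of miR-208b or higher, 0 had a log2 fold change as low at d 124 against d 0. Their changes ranged from -0.60 to 1.38, with a median of 0.039. The lowest of them, at -0.60, was bta-miR-362-5p. Over all 368 features the change of miR-208b ranked 17 from the lowest, and the 16 features with lower values had lower median levels. Some of these medians were near that of miR-208b, at 9.74 for MI0009821, with a change of -1.08, and at 9.46 for bta-miR-196a-2, with a change of -1.35. MI0009821 was singled out after its values were seen. These are ranks of measured changes, with no test, and miR-208b was picked for this change.

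**Figure D3:**
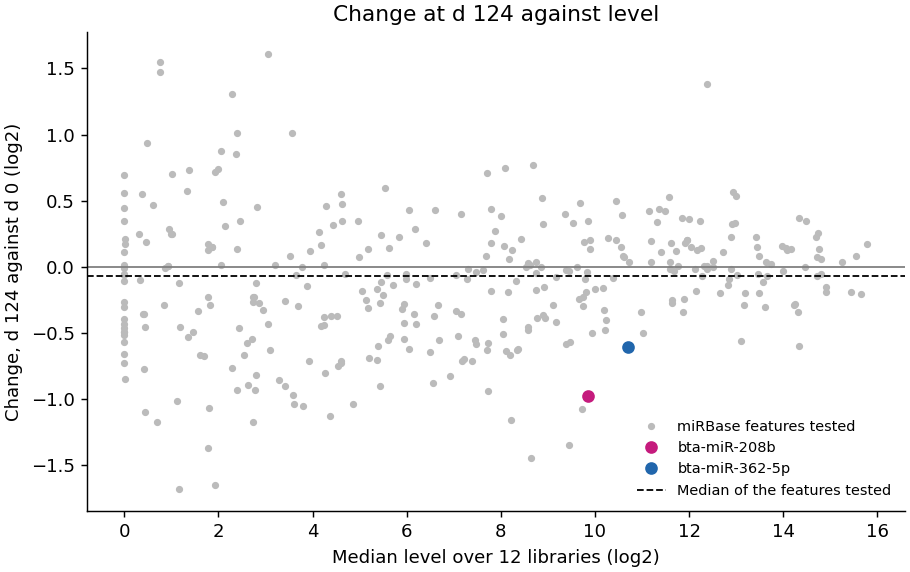
Change in level at d 124 against d 0 (log2) against the median level over 12 libraries (log2) for the miRBase features tested that have a recovered median. The coloured points are bta-miR-208b, at -0.97, and bta-miR-362-5p, at -0.60, and the dashed line is the median of all features tested, at -0.066.

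At d 92 miR-208b had not moved in 1 direction. Between d 0 and d 92 its level changed by -0.081 in steer 1, 0.53 in steer 2, -1.58 in steer 3 and -0.58 in steer 4. With libraries centred on their medians these changes were 0.038, 0.48, -1.56 and -0.22, and with quantile normalization within miRBase features 0.10, 0.28, -1.85 and 0.16. The sign for steer 1 turned under both and that for steer 4 under the second, so that only steer 3 was lower at d 92 in every form. The log2 fold change was -0.43, with a standard error of 0.38 and a 95% interval of -1.25 to 0.40 (limma, adjusted p = 0.928), and the 2 times overlapped (exact permutation test, two-sided, p = 0.486). The d 92 library of steer 3 decided most of it, since it was -0.021 without d 92 replicate 3. At an unadjusted p under 0.05 and 1.3-fold, 14 of 368 features (3.8%, and 5.16% in either direction) were lower at d 92, and miR-208b was not among them. Nor was it among the 2.45% of features with every d 92 library below every d 0 library, or the 8.97% that were lower in 4 of 4 steers.

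From d 92 to d 124 the change of miR-208b was -1.04 in steer 1, -1.01 in steers 2 and 4, and 0.88 in steer 3. The levels at d 92 and d 124 overlapped (exact permutation test of the means, two-sided, p = 0.229). That test ignores the pairing by steer. The paired sign-flip permutation test gave p = 0.25, where 4 pairs allow none below 0.125. The log2 fold change was -0.55, with a standard error of 0.38 and a 95% interval of -1.37 to 0.28 (limma, adjusted p = 0.974). Without d 92 replicate 3 it was -0.95, with an unadjusted p of 0.0130 and an adjusted p of 0.972 from limma. By the same limits 3 of 368 features (0.815%, and 1.36% in either direction) were lower at d 124 than at d 92, and miR-208b was not among them with all 12 libraries. It was also outside the 1.09% of features with separate groups and the 6.79% lower in 4 of 4 steers. Over the 3 times the F test of limma gave an adjusted p of 0.892 for miR-208b. With 4 libraries per time, these tests called no difference between adjacent times, d 0 and d 92 or d 92 and d 124. They do not show that adjacent times were alike.

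How far the steers differed at d 0 and d 124 depended on the scaling. As deposited, the range of miR-208b over the 4 steers was 1.47 (log2) at d 0, 1.80 at d 92 and 0.45 at d 124. The SD at d 124 was 0.334 of that at d 0, a ratio as low or lower in 10.7% of 364 features. Against d 92 the ratio was 0.244, as low or lower in 3.35% of 358 features. With libraries centred the SDs of miR-208b were 0.22, 0.69 and 0.13 at d 0, d 92 and d 124. With quantile normalization within miRBase features they were 0.21, 0.83 and 0.24, and those of its rank were 4.50, 21.02 and 6.16, so in both of these d 124 was no longer less variable than d 0. The widest spread was at d 92 in each form. Of the variation of miR-208b over 12 libraries, 36.8% lay between times and 25.7% between steers. The medians over the 368 features were 13.3% and 31.4%. As deposited, steer 4 was above the mean of its time at 3 of 3 times, steer 1 at 2 and steers 2 and 3 at 1. With libraries centred, steer 4 was below the mean at d 124, at 9.43 against 9.48. With quantile normalization within miRBase features it was below the mean at d 0 (10.24 against 10.25) and at d 124 (9.26 against 9.41).

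Part of this spread went with the libraries as a whole. The library median was taken over the miRBase features tested that had a recovered level and were above the floor in that library. It differed between libraries by -0.39 to 0.75 (log2) around its mean. Over 12 libraries the level of miR-208b correlated with this median (Pearson r = 0.72, Spearman rho = 0.70, and r = 0.59 without the 2 libraries farthest from the median of miR-208b). These libraries are 4 steers at 3 times and share their normalization, so no p is given. The highest library median, at 0.75, was that of steer 4 at d 0, where miR-208b was also highest. With each library centred on this median, the SD of miR-208b at d 0 was 0.22 in place of 0.60, and its ranks there had spanned 95 to 106.

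After centring, miR-208b at d 124 against d 0 changed by -0.74 on the log2 scale, with a standard error of 0.30 (limma, adjusted p = 0.633), and by -0.50, -0.54, -1.03 and -0.87 in steers 1 to 4. All d 124 libraries again lay below all d 0 libraries (exact permutation test, p = 0.0286). The share of features with such separate groups after centring was not computed. Centring raised the median change of all features from -0.066 to 0.17. Relative to that median the change of miR-208b was -0.91 either way. This equality was fixed in advance, since centring shifts all features of a library alike. Centring also turned the split of the features past the limits at d 124 from 5 higher and 28 lower to 16 higher and 9 lower. With quantile normalization repeated within miRBase features the log2 fold change of miR-208b was -0.83, with a standard error of 0.31 (limma, adjusted p = 0.438), and the split was 16 higher and 19 lower. Centring and the repeated normalization left steer 3 at d 92 the lowest of its time, at 8.88 and 8.67, against 10.09 or more and 10.28 or more in the other steers.

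The row most like miR-208b over the 12 libraries was bta-miR-362-5p (MI0009811), with a Pearson r of 0.89 over 367 other features tested. By Spearman rho it was at 0.85, below MI0009720 at 0.89. Another row was also first by r without the 2 farthest libraries, at 0.87 against 0.75 for bta-miR-362-5p, without d 0 replicate 4, at 0.88, without d 92 replicate 3, at 0.84, and without d 92 replicate 4, at 0.90. The gene of bta-miR-362-5p lies inside CLCN5, among the genes MIR188, MIR500, MIR532 and MIR660, in the annotation of ARS-UCD2.0, apart from the myosin genes. Its level was 10.65, 10.92, 10.77 and 11.62 at d 0, 10.92, 10.96, 9.84 and 11.43 at d 92, and 10.20, 10.32, 10.38 and 10.65 at d 124, in steers 1 to 4. As with miR-208b, steer 4 was the highest at d 0 and d 92 and steer 3 was the lowest at d 92. The likeness was 0.85 on deviations from the time means, 0.95 on deviations from the steer means and 0.75 after centring. At d 124 against d 0 bta-miR-362-5p was lower in all 4 steers, with a log2 fold change of -0.60 (limma, adjusted p = 0.676). Of the 368 features 10.3% were lower in 4 of 4 steers, and this row was picked for its likeness to miR-208b.

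**Figure D4:**
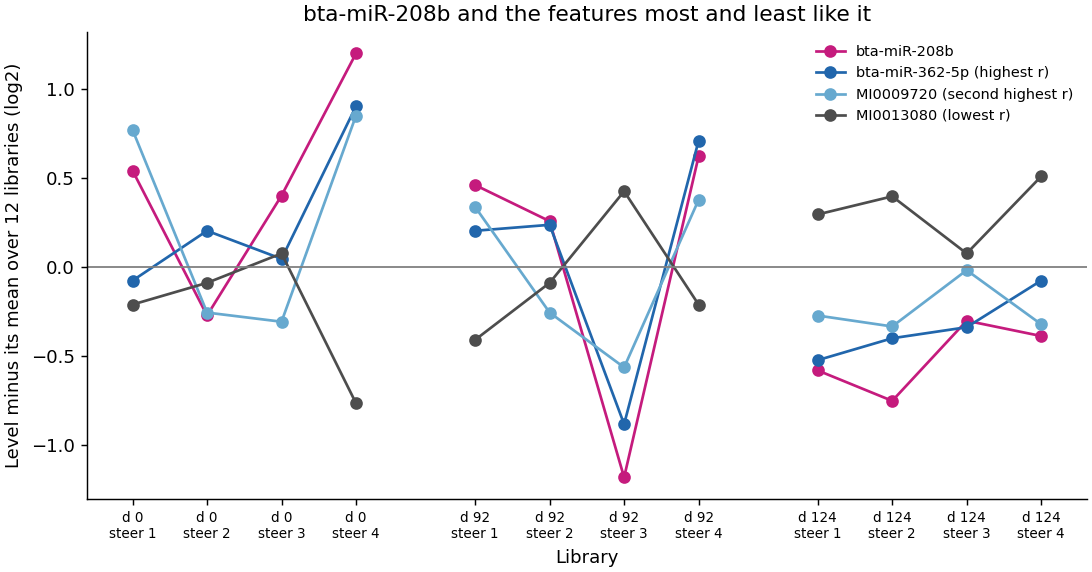
Level minus its own mean over 12 libraries (log2) of bta-miR-208b, of the features with the highest and second highest r with it, and of the feature with the lowest r, by library. The d 92 library of steer 3 and the d 0 library of steer 4 carry the widest swings of bta-miR-208b, and bta-miR-362-5p follows both.

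No names are given here for the other rows that vary with miR-208b, which keep their identifiers. The second highest r, 0.83, was that of MI0009720, and it was 0.61 after centring. The lowest were -0.89 for MI0013080 and -0.88 for MI0013081, which were themselves nearly identical (r = 0.99). After centring they were -0.58 and -0.56, and 0 of the 5 lowest rows remained among the 5 lowest. MI0013080 had a mean level of 12.69 at d 0, 12.86 at d 92 and 13.25 at d 124. It was higher at d 124 than at d 0 in 4 of 4 steers, with a log2 fold change of 0.57 (limma, adjusted p = 0.496). The share of features higher in 4 of 4 steers was not computed. This row was picked for its low r with miR-208b, so its rise at d 124 is not a separate result. Over the 367 features the median r was 0.207, with 69 over 0.5 and 10 under -0.5. After centring the median was -0.152, with 12 over 0.5 and 64 under -0.5. The share of positive r was 71.9% as deposited and 30.8% after centring.

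**Figure D5:**
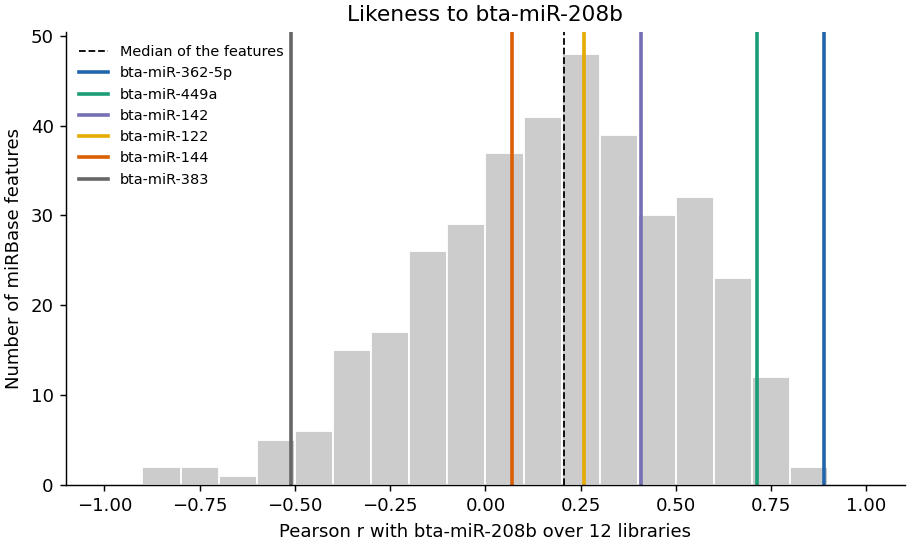
Histogram of Pearson r with bta-miR-208b over 12 libraries for 367 miRBase features, with 6 named miRNAs as coloured lines. Most features lie above 0 (median 0.207), bta-miR-362-5p is at the far right at 0.89, and bta-miR-144 and bta-miR-122 lie near the middle.

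Of the other 17 miRNAs that the study listed at d 92 or d 124, 13 had a positive r with miR-208b, with a median of 0.258, near that of all features. The miRNA bta-miR-449a, at a low level (mean 2.19 at d 0 and 0.51 at d 124), had an r of 0.71, and 0.45 without the 2 farthest libraries. At the other end was bta-miR-383, with an r of -0.51. The HOX cluster miRNAs bta-miR-196a-1, bta-miR-196a-2 and bta-miR-196b were also lower at d 124 by value, but their r with miR-208b was between 0.25 and 0.34. In steer 3 at d 92, where miR-208b was lowest, bta-miR-196a-2 was at 10.20, the highest of its time.

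The markers of other cells that could be named, bta-miR-144, bta-miR-142 and bta-miR-122, did not have the course of miR-208b. Further blood markers, and those of endothelium, fibroblasts and smooth muscle, are not analysed here, since no source used here names their rows. The red blood cell miRNA bta-miR-144 had mean levels of 11.44, 12.98 and 12.82 at d 0, d 92 and d 124, with an r of 0.07 to miR-208b. The white blood cell miRNA bta-miR-142 had means of 11.19, 12.00 and 11.71, with an r of 0.41. The liver miRNA bta-miR-122 had means of 9.07, 10.53 and 9.55, with an r of 0.26. On deviations from the time means these r values were 0.57, 0.74 and 0.46, without centring. On the same deviations miR-208b had an r of 0.72 with the library median. With libraries centred, over all libraries, the r values of the 3 miRNAs were -0.09, 0.23 and -0.17. Whether they shared more with miR-208b than the shift of the library median was not tested. The d 92 library of steer 3 had bta-miR-142 at 10.88 and bta-miR-144 at 12.22, each the lowest of its time. For bta-miR-144 steer 4, where miR-208b was highest at d 92, was almost as low, at 12.24. The part of blood in the low miR-208b of steer 3 at d 92 was not tested. The other 7 muscle miRNAs considered, among them miR-1, miR-133a, miR-206, miR-208a and miR-499, are not analysed here, since no source used here names their rows.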

How the data were processed

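Small RNA of 12 longissimus biopsies was sequenced on an Ion S5 by the authors. They aligned to bosTau4 and quantile normalized in StrandNGS, version not given in the sources used here. Each deposited column holds the log2 values of 1 library, after subtraction of the row's median. Medians were recovered for 1302 of 1314 varying features by matching levels shared between libraries (tolerance 3e-06), starting from rows at the floor in 7 or more libraries. Of levels from 100 to 2200, 83.2% were whole multiples of 1/12 (tolerance 0.005), where 12% are expected by chance. All 12 libraries entered a limma 3.58.1 fit (R 4.3.3, trend, robust, time as the only term) of the 368 miRBase features that exceeded the floor in 4 libraries or more, with Benjamini-Hochberg adjustment. The self-tests on simulated tables and values recovered what had been put in. They are a check of the code, and no power to call a change with 4 libraries per time is claimed from them. Python 3.11.15, numpy 2.4.6 and pandas 2.3.3 were used for the rest.

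Equal replicate numbers are 1 steer by the sample codes, so the numbers pair the samples. Deviations from time means correlated between -0.051 and 0.44 (median 0.116) over 12 same-steer pairs, and with a median of -0.026 over 36 pairs of different steers. Alternatives were the steer as a block, other filters, log2(value + 10), centred libraries, no trend, and each library or steer left out. The miRNA, the lists and the tests were chosen with earlier results of these data known. Named rows were the 5 with the highest and the 5 with the lowest Pearson r where a name is paired, otherwise at most 2 identifiers each way, and the miRNAs the study listed. Quantile normalization within miRBase features, ranks and the centred likeness were added after seeing the data.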

Additional observations from a re-analysis of the deposited data

How the results depend on the processing

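The log2 fold change of miR-208b was below 0 in all 3 comparisons under each of 28 alternatives, and its adjusted p from limma stayed above 0.05 (0.234 to 0.789 at d 124 against d 0). It ranged from -1.22 to -0.73 at d 124 against d 0, from -0.75 to -0.021 at d 92 against d 0 and from -1.02 to -0.35 at d 124 against d 92. Many alternatives could not change the log2 fold change, only its error or p. These were the block with all steers, the filters, all small RNA features, no trend, and leaving out a library of the time not compared. With the steer as a replicate block the values were -0.97 (standard error 0.35, adjusted p = 0.329 from limma), -0.43 and -0.55, and the block changed no call. Leaving out libraries or steers in turn, the unadjusted p from limma ran from 0.00736 to 0.103 at d 124 against d 0 and from 0.0130 to 0.460 at d 124 against d 92. At d 124 against d 0 it was 0.0868 without d 0 replicate 4, 0.0915 without steer 1 (0.0693 with the block) and 0.0921 without steer 4 (0.103 with the block). At d 124 against d 92 it was 0.0257 without steer 3 (0.0151 with the block) and 0.403 without d 92 replicate 4. In limma 0 features had an adjusted p under 0.05, whichever alternative was used. The number at an unadjusted p under 0.05 and 1.3-fold, 19 at d 92, 33 at d 124 and 5 at d 124 against d 92, became 45, 81 and 38 over all small RNA features, and 12, 30 and 2 with log2(value + 10). It was 20 at d 124 without d 124 replicate 1, 3 at d 124 against d 92 with the stricter filter, 8 there without d 0 replicate 4 and 14 without d 92 replicate 3. Of the 10 features with the highest or lowest r, 6 remained on deviations from time means, 4 on deviations from steer means, 5 without the 2 farthest libraries and 2 after centring, and 6 to 10 when 1 library was left out (6 without d 124 replicate 1). With no counts in the table, counting error cannot be given.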
